A study of Mus musculus with 6 samples.

Results

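The genes described here are 10 genes named for bone morphogenetic proteins (BMPs), a growth and differentiation factor and the activin beta subunits, measured in heart muscle cell cultures: Bmp1, Bmp2, Bmp4, Bmp5, Bmp6, Bmp7, Bmp10, Gdf6, Inhba and Inhbb. They were taken by symbol from the 32245 genes counted in each library, by a rule that uses no measured value. The cultures were primary cardiomyocytes from hearts of wild type neonatal mice. They received the recombinant growth factor BMP2 with dorsomorphin (BMP2+DM), BMP2 alone, or phosphate-buffered saline (PBS), and 2 libraries of polyadenylated RNA were sequenced for each. Dorsomorphin blocks the kinase activity of BMP type I receptors and also acts on AMP-activated protein kinase. Every cell that received it also received BMP2, and no group received dorsomorphin alone. The labels state no strain, exact age, dose or length of treatment. Nothing in the labels says whether the 2 libraries of a group came from separate cultures, so p-values measure only the spread between these samples, which may be technical.

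BMPs, GDFs and activins are secreted as dimers, after proprotein convertases cut the mature part from a longer precursor. BMPs and GDF6 act through BMP receptors and their SMAD transcription factors. Activins, dimers of the subunits encoded by Inhba and Inhbb, act mainly through other type I receptors and other SMADs, and the receptor sets overlap in part. In the developing heart Bmp2 and Bmp4 take part in valve and outflow tract formation, and Bmp10 is known from trabecular and atrial cardiomyocytes. Bmp1 shares the name but not the family: it encodes a tolloid metalloproteinase that trims procollagens and cleaves the BMP antagonist chordin, so the label of ligand holds for the other 9 genes. The BMP2 protein added to the medium gives no Bmp2 reads; the counts of that gene come from the cells.

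The libraries had 10106667 to 14366042 counts assigned to genes. Reads of the ribosomal-repeat models Gm42418 and AY036118 made up 2.10% of these in BMP2 1 and 1.31% in PBS 1, and at most 0.0928% in each of the other 4. All 9 cardiomyocyte markers were detected in every library, with a summed level of 21424 to 25446 CPM (counts scaled to a common library size). Markers of other cells were present too, with summed levels of 3822 to 6297 CPM for 6 fibroblast markers, 1478 to 2504 CPM for 5 smooth muscle and pericyte markers, 135 to 234 CPM for 6 endothelial markers, 70.3 to 108 CPM for 6 epicardial markers and 22.2 to 30.7 CPM for 5 leukocyte markers. Which cells made a given ligand transcript cannot be read from these bulk libraries.

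The stretches of 250 bases upstream of the transcription start are shown for Bmp4 and Inhbb, which passed the test with opposite signs in both BMP2 against PBS and BMP2+DM against BMP2, and for Inhba, the sister gene of Inhbb. They are RefSeq sequences of mouse build GRCm38.p6, read 5′ to 3′ on the strand of the gene, with capitals marking an E-box (CACGTG) in Bmp4 and a TATA box (TATAAA) in Inhba.
Bmp4 (chr14:46390670-46390919, minus strand): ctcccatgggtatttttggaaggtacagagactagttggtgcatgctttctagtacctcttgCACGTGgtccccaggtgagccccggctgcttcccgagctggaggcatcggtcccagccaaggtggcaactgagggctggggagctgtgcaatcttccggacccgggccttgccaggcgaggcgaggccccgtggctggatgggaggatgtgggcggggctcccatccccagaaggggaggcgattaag
Inhbb (chr1:119422249-119422498, minus strand): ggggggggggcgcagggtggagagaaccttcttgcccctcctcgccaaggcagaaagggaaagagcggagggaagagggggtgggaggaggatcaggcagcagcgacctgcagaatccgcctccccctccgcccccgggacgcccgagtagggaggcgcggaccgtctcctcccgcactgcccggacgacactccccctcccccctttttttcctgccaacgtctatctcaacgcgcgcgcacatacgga
Inhba (chr13:16011601-16011850, plus strand): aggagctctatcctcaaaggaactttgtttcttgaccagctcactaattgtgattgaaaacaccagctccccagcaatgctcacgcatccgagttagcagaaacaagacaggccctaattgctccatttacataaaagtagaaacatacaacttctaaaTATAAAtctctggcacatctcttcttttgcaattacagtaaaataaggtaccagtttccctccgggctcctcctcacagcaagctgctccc
The upstream stretches of Bmp4 and Inhbb had 63.2% and 68.0% G and C, and that of Inhba 43.2%, against a median of 52.4% over 32851 stretches of the same length. An E-box was present in 6.02% of those stretches and a TATA box in 12.4%. The same search, on both strands, covered the GC-rich SMAD box GGCGCC (9.59% of stretches), the SMAD half-site CAGAC (42.2%), the palindromic SMAD element GTCTAGAC (0.167%), the NF-kB site (17.6%) and the AP-1 site TGANTCA (6.75%). None of these occurs in the 3 stretches shown, and the motifs marked do not overlap another searched motif. The E-box and the SMAD half-site were added to the search after the stretches were seen, so their presence is a description only. Of the 10 genes, 6 had an entry in the sequence table. Bmp5, Bmp6 and Bmp10 were the other genes matched: Bmp5 and Bmp6 held the SMAD half-site, Bmp6 also an E-box, and Bmp10 none of the 7 motifs. The Bmp6 stretch, chr13:38345466-38345715, lies inside the locus given for Bmp6 below, so it is not upstream of the start of that locus. Bmp1, Bmp2, Bmp7 and Gdf6 had no entry, so their upstream stretches were not searched.

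All 10 genes passed the filter on low counts, and each reached its cutoff of 0.930 CPM in all 6 libraries, except Bmp10 in BMP2 2. The levels were far apart. Per kilobase of exon, Gdf6 was the highest of the 10 genes in each group, with 20.9 ± 2.42 CPM per kb in BMP2+DM, 25.2 ± 0.662 in BMP2 and 31.9 ± 3.11 in PBS (mean ± SD, n = 2). That placed it above 83.5%, 86.4% and 89.5% of the 14239 tested genes with an annotated length. Inhba, Bmp1 and Bmp4 followed in BMP2+DM and PBS, at 13.9 to 15.1 and 15.8 to 22.02 CPM per kb. In BMP2, Inhba (15.9 ± 0.00832), Bmp1 (14.5 ± 0.249) and Inhbb (13.4 ± 0.0177) followed, and Bmp4 was the fifth at 8.41 ± 0.641 CPM per kb. Bmp6 and Bmp7 lay between 2.82 and 9.83 CPM per kb in all groups. Bmp2, Bmp5 and Bmp10 were the lowest, between 0.186 and 1.39 CPM per kb.

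The order of neighbours held beyond the spread of the 2 libraries for most pairs. The libraries overlapped for Bmp1 with Bmp4, Bmp2 with Bmp10 and Bmp10 with Bmp5 in PBS. In BMP2+DM they overlapped for Bmp4 with Inhba, Inhba with Bmp1, Inhbb with Bmp6 and Bmp10 with Bmp5, and in BMP2 for no neighbours. Bmp1 has 7 annotated transcripts, and its place depends on the length used: by its longest transcript (5365 bases, against 8870 in the union of exons) it ranked 1 in BMP2+DM and 2 in BMP2 and in PBS.

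**Figure D1:**
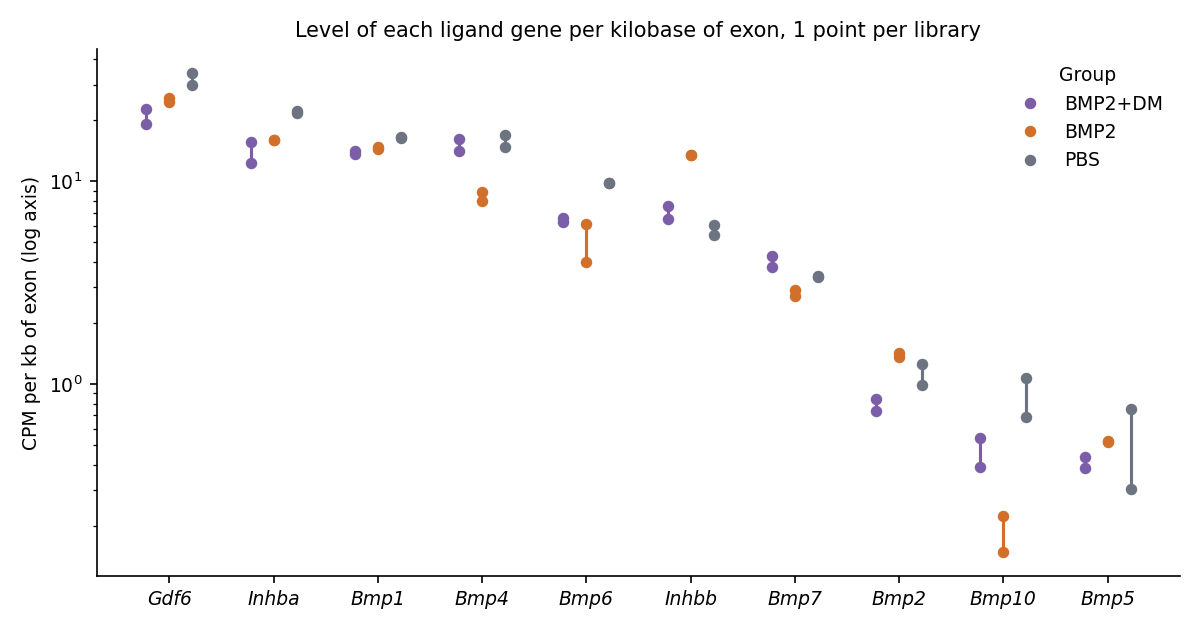
Level of each of the 10 genes in CPM per kilobase of exon (log axis), with 1 point for each of the 6 libraries and genes ordered by their mean in PBS. Gdf6 is highest in each group, at 20.9 (BMP2+DM), 25.2 (BMP2) and 31.9 (PBS) CPM per kb, and Bmp2, Bmp10 and Bmp5 lie lowest.

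BMP2 against PBS asks how the added growth factor changed the ligand transcripts of the cells. Of the 10 genes, 5 fell and 1 rose, where 15.8% of all 14378 tested genes were called (9.29% lower and 6.55% higher, edgeR adjusted p under 0.05). Bmp4, Bmp6, Bmp10, Gdf6 and Inhba fell, and Inhbb rose. The median log2 fold change of the 10 genes was −0.30, beside 0.0044 over all tested genes. With PBS 1 and BMP2 1 left out, which sets 1 library against 1 and takes the spread from the BMP2+DM pair, 0 of the 10 genes fell and Inhbb still rose. Without PBS 2, or without BMP2 2, 3 of the 10 fell.

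BMP2+DM against BMP2 asks what dorsomorphin changed in cells that also received BMP2. Of the 10 genes 1 rose, Bmp4, and 1 fell, Inhbb, where 8.73% of all tested genes were called (4.28% higher and 4.44% lower). The median was −0.13, beside 0.00035 over all tested genes. Without the 2 libraries high in ribosomal-repeat reads, 0 of the 10 genes rose and 1 fell. The count of genes that rose was 2 without BMP2 2, where Bmp6 was added. The count of genes that fell was 2 without BMP2+DM 1, where Inhba was added, and 2 without BMP2+DM 2, where Gdf6 was added.

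Between BMP2+DM and PBS, 4 of the 10 genes fell (Bmp1, Bmp6, Gdf6 and Inhba) and 0 rose, where 20.9% of all tested genes were called (11.5% lower and 9.38% higher). At an unadjusted p under 0.05 in edgeR 1 gene was higher, Inhbb, and DESeq2 also called 0 higher. The median was −0.42, beside 0.0069 over all tested genes. Of the 4, 2 fell without PBS 1, without PBS 2, and without both PBS 1 and BMP2 1. Each group serves in 2 of the 3 comparisons, so fold changes of a gene are not independent of each other. Below, groups whose libraries do not overlap are named as a description only. With 2 libraries per group this often arises without a difference, and its share over all tested genes was not computed.

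**Figure D2:**
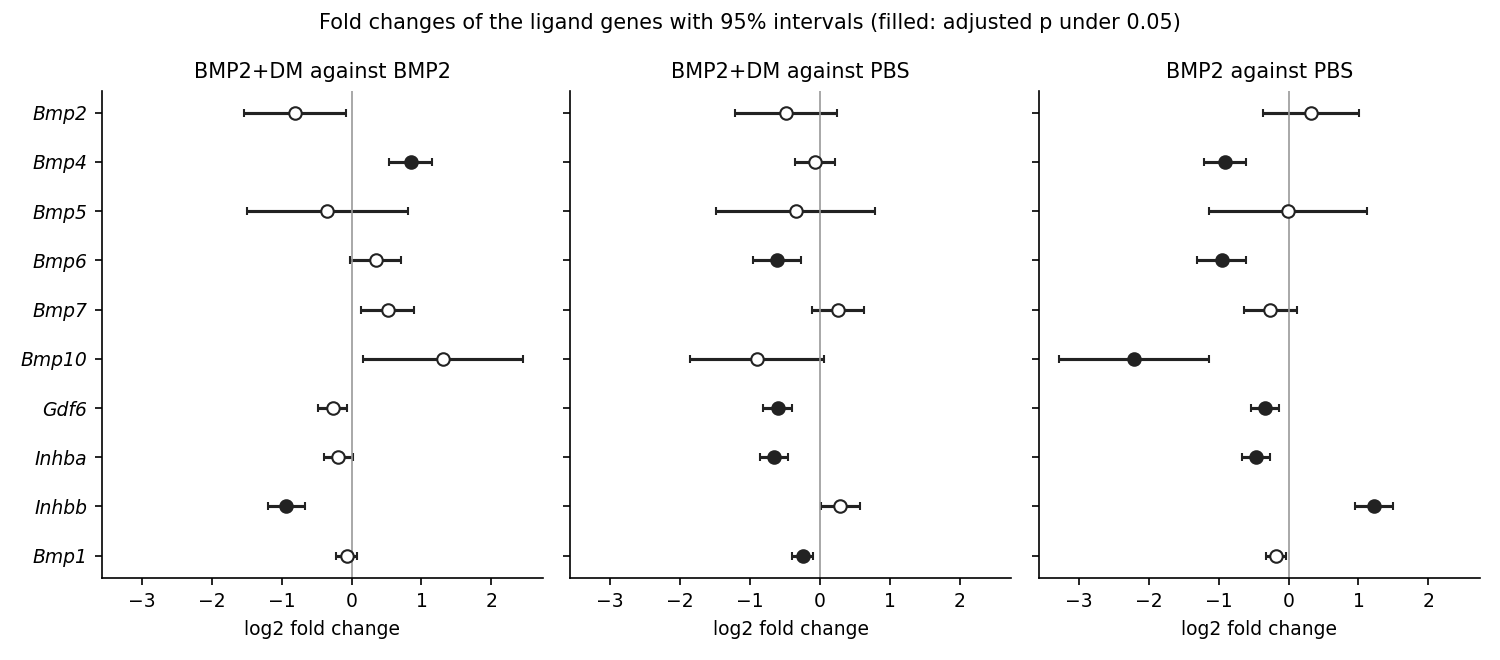
Log2 fold change of each of the 10 genes in the 3 comparisons, with 95% intervals from the edgeR fit. Filled points had an adjusted p under 0.05. Inhbb lies at −0.93 in BMP2+DM against BMP2 and at 1.22 in BMP2 against PBS, and Bmp4 at 0.85 and −0.91.

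Among the BMP genes, Bmp4, which encodes a ligand close in sequence to BMP2, had 31.5 and 36.5 CPM in BMP2+DM, 17.9 and 19.9 CPM in BMP2, and 37.8 and 33.2 CPM in PBS. Both BMP2 libraries were below all 4 others, and the BMP2+DM and PBS libraries overlapped. Bmp4 fell in BMP2 against PBS, with a log2 fold change of −0.91 ± 0.14 (SE, edgeR adjusted p = 0.000184), or 1.88-fold lower. It rose in BMP2+DM against BMP2, by 0.85 ± 0.14 (edgeR adjusted p = 0.000900). Its difference between BMP2+DM and PBS was −0.07 ± 0.14, with a 95% interval of −0.35 to 0.22. Without PBS 1 and BMP2 1 the fall was −0.74 and the rise 0.77, and neither passed (edgeR adjusted p = 0.104 and 0.0901). In the fits that left out 1 library both calls were kept. Its locus is chr14:46383520-46390669 (mm10, minus strand). The antisense model Gm15217, with 1 to 13 counts per library, covers 3.96% of its exons.

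Bmp6, whose product is known as a regulator of iron balance and is made by endothelial cells in the liver, had 25.7 and 24.5 CPM in BMP2+DM, 15.6 and 23.9 CPM in BMP2, and 38.2 and 38.4 CPM in PBS. Both PBS libraries were above the other 4, and the BMP2 pair was the one that spread most. Bmp6 fell in BMP2 against PBS by −0.96 ± 0.16 on the log2 scale (edgeR adjusted p = 0.000464). It also fell in BMP2+DM against PBS, by −0.61 ± 0.16 (edgeR adjusted p = 0.0113). Between BMP2+DM and BMP2 it was 0.35 ± 0.17, with a 95% interval of −0.02 to 0.71, and it did not pass. The value rested on 1 BMP2 library: it was 0.68 without BMP2 2, where it passed (edgeR adjusted p = 0.0372), and 0.067 without BMP2 1 (0.888). The fall in BMP2+DM against PBS was lost without PBS 1 (−0.62, edgeR adjusted p = 0.0678), without PBS 2 (−0.61, 0.0739) and without BMP2+DM 2 (−0.57, 0.0591). Without PBS 1 and BMP2 1 together, neither fall passed, at −0.68 in BMP2 (edgeR adjusted p = 0.106) and −0.62 in BMP2+DM (0.0517). Its locus is chr13:38345107-38500302 (mm10, plus strand). Exons of Txndc5, a gene on the other strand with 3397 to 6607 counts per library, cover 5.74% of its exons. The strand setting of the counting is not given, so reads in the shared stretch cannot be told apart.

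The endothelial marker sum was 135 and 148 CPM in BMP2+DM, 190 and 203 CPM in BMP2, and 226 and 234 CPM in PBS. In BMP2 against PBS 2 of the 6 endothelial markers fell and 1 rose (median −0.14), and the value for Bmp6 was −0.96. In BMP2+DM against BMP2 3 fell and 0 rose (median −0.48), and Bmp6 was 0.35, which did not pass. In BMP2+DM against PBS 4 fell and 0 rose (median −0.56), and Bmp6 was −0.61. Over the whole list the libraries of the 3 groups did not overlap.

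Markers of other cells differed between groups as well. The summed level of the 6 epicardial and mesothelial markers was 78.8 and 70.3 CPM in BMP2+DM, 72.9 and 75.5 CPM in BMP2, and 108 and 108 CPM in PBS. Of these, 4 fell and 0 rose in BMP2 against PBS (median −1.29), 1 fell and 2 rose in BMP2+DM against BMP2 (median 0.79), and 3 fell and 0 rose in BMP2+DM against PBS (median −0.70). The 5 smooth muscle and pericyte markers summed to 1577 and 1657 CPM in BMP2+DM and 1489 and 1478 CPM in BMP2. In PBS they summed to 2504 and 2499 CPM. Most of that sum came from 1 gene, Acta2, so it says little of the other markers. Acta2 had a mean of 1318 CPM in BMP2+DM, 1162 CPM in BMP2 and 2085 CPM in PBS. Of the 5 markers, 2 fell and 0 rose in BMP2 against PBS (median −0.51). In BMP2+DM against BMP2 0 fell and 1 rose, Acta2 (median −0.02), and 3 fell and 0 rose in BMP2+DM against PBS (median −0.53). Fewer cells of a type and less RNA per cell cannot be told apart in bulk libraries, and the part of cell makeup in the values of any ligand gene was not tested.

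Bmp10, the cardiomyocyte ligand, rested on few reads. It had 25 and 18 counts (2.42 and 1.75 CPM) in BMP2+DM, 11 and 7 counts (0.999 and 0.668 CPM) in BMP2, and 43 and 55 counts (3.07 and 4.78 CPM) in PBS. The 3 groups did not overlap. Bmp10 fell 4.63-fold in BMP2 against PBS, a log2 fold change of −2.21 ± 0.51 (edgeR adjusted p = 0.00559). That fall kept its sign in all 13 alternatives, but did not pass without PBS 2 (−1.86, edgeR adjusted p = 0.0998), without BMP2 2 (−1.96, 0.0563), or without PBS 1 and BMP2 1 (−2.82, 0.0802). Between BMP2+DM and BMP2 it was 1.31 ± 0.54 and did not pass (edgeR adjusted p = 0.160; 95% interval 0.16 to 2.45). Between BMP2+DM and PBS it was −0.90 ± 0.46 and did not pass either (edgeR adjusted p = 0.183; 95% interval −1.86 to 0.06). Its locus is chr6:87428994-87437677 (mm10, plus strand).

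The summed level of the 9 cardiomyocyte markers was 23096 and 23398 CPM in BMP2+DM, 21540 and 21424 CPM in BMP2, and 25446 and 25272 CPM in PBS. Of these markers, 8 fell and 0 rose in BMP2 against PBS, with a median log2 fold change of −0.45. The falls ran from −0.18 ± 0.03 for Myh6, which held the greatest part of the sum, to −0.99 ± 0.05 for the ryanodine receptor gene Ryr2. In BMP2+DM against BMP2 0 fell and 3 rose (median 0.09), and 6 fell and 0 rose in BMP2+DM against PBS (median −0.22).

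Bmp2 itself had 2.998 and 2.62 CPM in BMP2+DM (31 and 27 counts), 4.81 and 5.05 CPM in BMP2 (53 and 53 counts), and 3.499 and 4.44 CPM in PBS (49 and 51 counts). Its libraries did not overlap between groups, with BMP2 highest and BMP2+DM lowest, but no comparison passed. The log2 fold change was 0.32 ± 0.33 in BMP2 against PBS (95% interval −0.37 to 1.01). It was −0.81 ± 0.34 in BMP2+DM against BMP2 (95% interval −1.54 to −0.08, edgeR adjusted p = 0.173) and −0.49 ± 0.35 in BMP2+DM against PBS. A rise of up to 2-fold in BMP2 against PBS lay within the interval. Its locus is chr2:133552159-133562885 (mm10, plus strand).

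Bmp7, which encodes a ligand of the same subgroup as BMP5 and BMP6, had 15.2 and 17.2 CPM in BMP2+DM, 10.9 and 11.7 CPM in BMP2, and 13.5 and 13.7 CPM in PBS. The 3 groups did not overlap, with BMP2+DM highest and BMP2 lowest. The largest of its differences, 0.52 ± 0.18 in BMP2+DM against BMP2 (95% interval 0.14 to 0.90), did not pass the test over all genes (edgeR adjusted p = 0.0890). It was −0.26 ± 0.18 in BMP2 against PBS and 0.25 ± 0.18 in BMP2+DM against PBS. Its locus is chr2:172868012-172940321 (mm10, minus strand).

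Bmp5 had 1.55 and 1.75 CPM in BMP2+DM, 2.09 and 2.10 CPM in BMP2, and 1.21 and 3.04 CPM in PBS. The PBS libraries lay on either side of all the others, and no comparison passed. In BMP2 against PBS the log2 fold change was −0.0031 ± 0.54, with a 95% interval of −1.13 to 1.13. A change of about 2-fold in either direction lay within the interval. The antisense model Gm26903 covers 46.7% of its exons and had 9 to 26 counts per library, beside 16 to 35 counts for Bmp5. Reads of the 2 models cannot be told apart without the strand setting. Its locus is chr9:75775364-75900310 (mm10, plus strand).

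Gdf6, a ligand known for its part in joint, skull and eye development, had 67.9 and 80.0 CPM in BMP2+DM, 87.3 and 90.6 CPM in BMP2, and 105 and 121 CPM in PBS. The 3 groups did not overlap. Gdf6 fell in BMP2+DM against PBS by −0.61 ± 0.10 on the log2 scale (edgeR adjusted p = 0.000155), a call kept in all 13 alternatives. It fell in BMP2 against PBS by −0.34 ± 0.10 (edgeR adjusted p = 0.0195). The second call was lost without PBS 2 (−0.24, edgeR adjusted p = 0.237), without BMP2 1 (−0.31, 0.128), without BMP2 2 (−0.37, 0.0705) and without PBS 1 and BMP2 1 (−0.41, 0.172). The difference between BMP2+DM and BMP2 was −0.27 ± 0.10 and did not pass (edgeR adjusted p = 0.109). It passed there without BMP2+DM 2 (−0.39, edgeR adjusted p = 0.0494) and with no filter on low counts (−0.27, 0.0456), and was −0.16 without BMP2+DM 1 (0.496). Its locus is chr4:9844372-9862345 (mm10, plus strand).

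**Figure D3:**
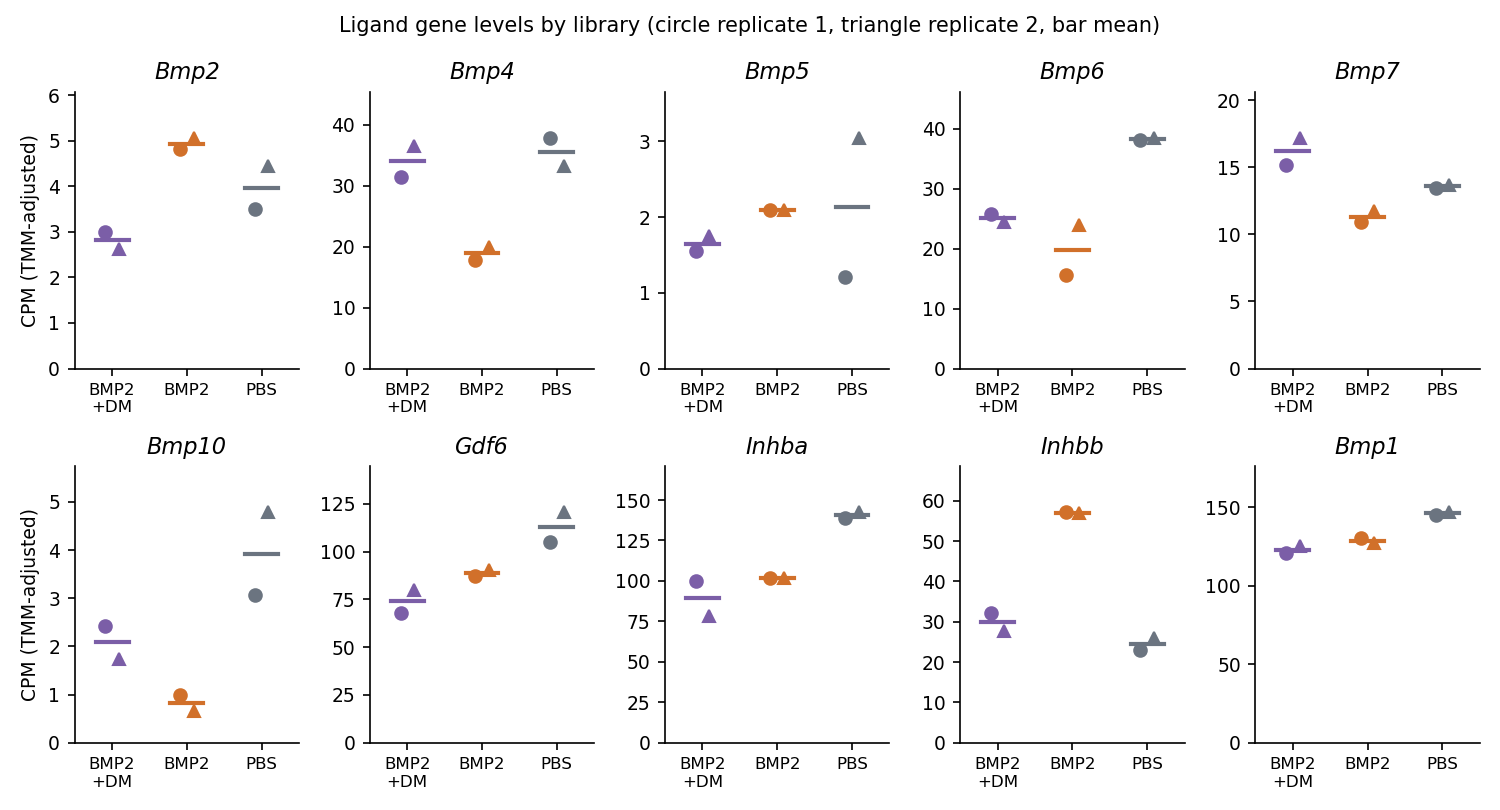
CPM of each of the 10 genes in the 6 libraries, by group, with circles for replicate 1, triangles for replicate 2 and bars for the mean of 2 libraries. The vertical axes start at 0 and differ between genes. Inhbb stands at 57.0 and 57.1 CPM in BMP2, above the other 4 libraries, and Bmp4 at 17.9 and 19.9 CPM, below the other 4.

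The activin subunit genes moved in opposite directions with BMP2. Inhbb, which encodes the beta B subunit of activins and inhibins, had 32.2 and 27.7 CPM in BMP2+DM, 57.1 and 57.0 CPM in BMP2, and 23.0 and 26.0 CPM in PBS. The 3 groups did not overlap, and both BMP2 libraries were highest. Inhbb rose 2.33-fold in BMP2 against PBS, a log2 fold change of 1.22 ± 0.13 (edgeR adjusted p = 1.89e-06). It fell in BMP2+DM against BMP2, by −0.93 ± 0.13 (edgeR adjusted p = 0.000104). Both calls were kept in all 13 alternatives, with edgeR or DESeq2 adjusted p of at most 0.0150 and 0.0281. The remaining difference, BMP2+DM against PBS, was 0.29 ± 0.13 and did not pass (edgeR adjusted p = 0.132; 95% interval 0.01 to 0.57). Its locus is chr1:119415465-119422248 (mm10, minus strand).

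Inhba, which encodes the beta A subunit, had 100.2 and 78.2 CPM in BMP2+DM, 102 and 102 CPM in BMP2, and 139 and 142 CPM in PBS. Both PBS libraries were above the other 4. Inhba fell in BMP2 against PBS by −0.47 ± 0.09 on the log2 scale (edgeR adjusted p = 0.00182), and the call was lost without PBS 1 and BMP2 1 (−0.49, edgeR adjusted p = 0.162). It fell in BMP2+DM against PBS by −0.66 ± 0.09 (edgeR adjusted p = 5.82e-05), a call kept in all 13 alternatives. Adding dorsomorphin to BMP2 gave −0.19 ± 0.10, which did not pass (edgeR adjusted p = 0.270). Without BMP2+DM 1 it fell there by −0.38 (edgeR adjusted p = 0.0207), and without BMP2+DM 2 it was −0.02. Its locus is chr13:16011851-16031621 (mm10, plus strand).

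As levels per kilobase of exon, the ratio of Inhbb to Inhba was 0.483 and 0.531 in BMP2+DM, 0.843 and 0.842 in BMP2, and 0.248 and 0.274 in PBS. The 3 groups did not overlap, and Inhba stayed the higher of the 2 genes in every library. Their summed level was 23.3 and 18.7 CPM per kb in BMP2+DM, 29.4 and 29.3 in BMP2, and 27.2 and 28.4 in PBS. The 7 BMP and GDF genes together had 45.4 and 51.0 CPM per kb in BMP2+DM, 41.5 and 45.7 in BMP2, and 61.7 and 65.2 in PBS. Both sums are descriptions without a test, and Gdf6 made up the greatest share of the second.

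Of the summed level of the 9 ligand genes, Inhbb held 11.03% and 9.32% in BMP2+DM, 19.0% and 17.9% in BMP2, and 6.08% and 6.53% in PBS. Bmp4 held 20.4% and 23.3% in BMP2+DM, 11.2% and 11.8% in BMP2, and 18.9% and 15.8% in PBS. The share of Gdf6 ran from 28.0% to 36.5% over all libraries. Transcript shares say nothing of the amount of secreted or active protein.

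**Figure D4:**
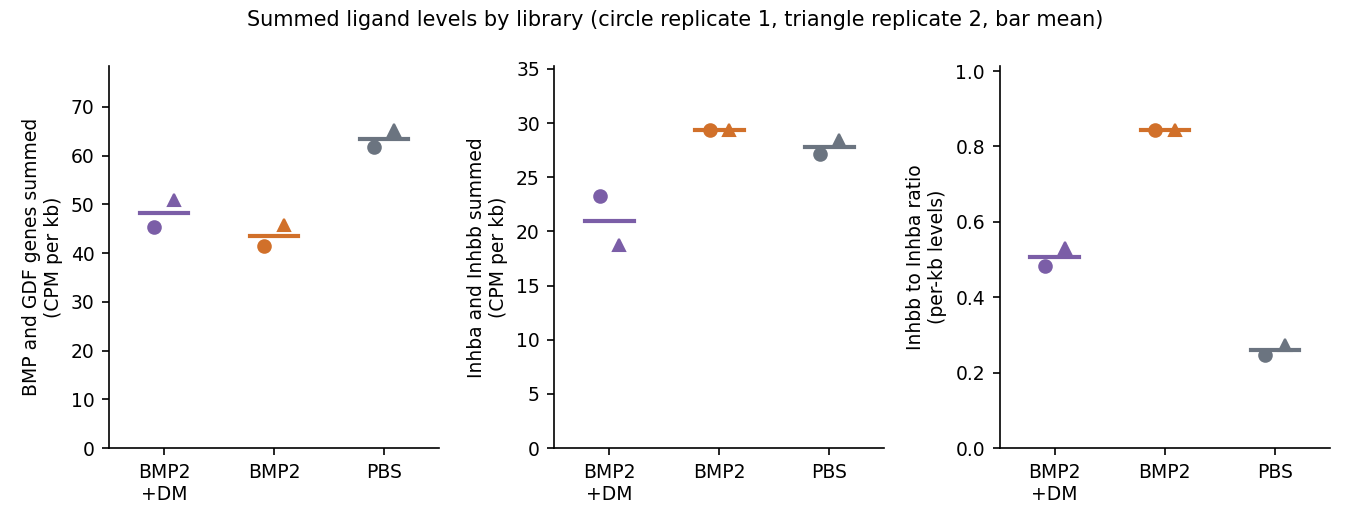
Summed per-kb levels of the 7 BMP and GDF genes (left) and of Inhba and Inhbb (middle), and the ratio of Inhbb to Inhba (right), by library, with bars for the mean of 2 libraries. The ratio is 0.842 and 0.843 in BMP2, against 0.483 and 0.531 in BMP2+DM and 0.248 and 0.274 in PBS.

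Bmp1, the procollagen proteinase, had 121 and 125 CPM in BMP2+DM, 130 and 127 CPM in BMP2, and 145 and 147 CPM in PBS. The 3 groups did not overlap, and PBS was highest. Bmp1 fell in BMP2+DM against PBS by −0.25 ± 0.07 on the log2 scale, or 1.19-fold (edgeR adjusted p = 0.0158). That call was lost without PBS 1 (−0.26, edgeR adjusted p = 0.0648), without PBS 2 (−0.24, 0.0860), without BMP2+DM 1 (−0.23, 0.0854) and without PBS 1 and BMP2 1 (−0.26, 0.119). In BMP2 against PBS it was −0.18 ± 0.07, with a 95% interval of −0.33 to −0.04, and missed the adjusted threshold (edgeR adjusted p = 0.0871). Between BMP2+DM and BMP2 it was −0.07 ± 0.07 and did not pass (edgeR adjusted p = 0.643). Its locus is chr14:70474558-70520234 (mm10, minus strand).

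The other tolloid proteinases, their enhancers and their substrates were taken as a list of 13 genes, of which 12 were tested. In BMP2 against PBS 8 fell and 1 rose, with a median log2 fold change of −0.29. Tll1, which encodes the related proteinase tolloid-like 1, fell to 3.85 ± 0.591 CPM in BMP2, against 14.8 ± 1.40 CPM in PBS (−1.94 ± 0.26). The lysyl oxidase gene Lox fell by −0.39 ± 0.06, and the collagen III gene Col3a1 rose by 0.54 ± 0.05. In BMP2+DM against BMP2 6 fell and 3 rose (median −0.14), with the collagen I gene Col1a1 at −0.58 ± 0.04, the biglycan gene Bgn at −0.42 ± 0.05 and Col3a1 at 0.52 ± 0.05. In BMP2+DM against PBS 8 fell and 1 rose (median −0.48). The fibroblast marker sum was 3822 and 3915 CPM in BMP2+DM, 5422 and 5449 CPM in BMP2, and 5957 and 6297 CPM in PBS. Col1a1 stands in both lists and held 83.6% to 89.1% of that sum. The other 5 fibroblast markers summed to 619 and 643 CPM in BMP2+DM, 613 and 594 CPM in BMP2, and 809.9 and 807 CPM in PBS. Of all 6, 3 fell and 2 rose in BMP2+DM against BMP2, with the decorin gene Dcn at 0.39 ± 0.06. Against PBS, 4 fell and 0 rose in BMP2, and 4 fell and 1 rose in BMP2+DM. The part of cell makeup in the values of these genes was not tested.

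Of 4 proprotein convertase genes, whose products cut ligand precursors, 1 fell in BMP2 against PBS: Pcsk6, at −0.55 ± 0.15. Furin, which encodes the best known of these enzymes, had 132 ± 0.755 CPM in BMP2+DM, 186 ± 2.52 CPM in BMP2 and 169 ± 7.26 CPM in PBS. It fell in BMP2+DM against BMP2 by −0.49 ± 0.07 and against PBS by −0.36 ± 0.07. Pcsk5 rose in the same comparisons, by 0.80 ± 0.18 and 0.996 ± 0.18.

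Of the other 24 ligand genes of the TGF-beta family, 8 were expressed highly enough to be tested. Those left out had at most 40 counts over all 6 libraries. In BMP2 against PBS 2 rose and 1 fell: Gdf11 at 0.83 ± 0.22, the stress-induced Gdf15 at 0.62 ± 0.12, and Tgfb3 at −0.90 ± 0.09. In BMP2+DM against BMP2 Tgfb3 and Tgfb2 rose by 0.50 ± 0.09 and 0.33 ± 0.08, and 0 fell. Against PBS, 1 rose and 2 fell in BMP2+DM. Tgfb3 had 93.2 ± 6.13 CPM in BMP2+DM, 66.1 ± 3.19 CPM in BMP2 and 123 ± 11.05 CPM in PBS.

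Of 13 tested receptor and co-receptor genes, 1 fell and 0 rose in BMP2 against PBS, 2 fell and 2 rose in BMP2+DM against BMP2, and 2 fell and 1 rose in BMP2+DM against PBS. The endothelial co-receptor gene Eng was at −0.42 ± 0.07 in BMP2+DM against BMP2, the BMP type I receptor gene Acvr1 at −0.42 ± 0.11 and the TGF-beta receptor gene Tgfbr2 at 0.39 ± 0.11. The list labelled secreted antagonists had 13 tested genes, and the label was used broadly and does not hold strictly for each. Of these, 5 fell and 2 rose in BMP2 against PBS. In BMP2+DM 3 fell and 1 rose against BMP2, and 3 fell and 1 rose against PBS. Fst, which encodes the activin-binding protein follistatin, had 25.2 ± 3.15 CPM in BMP2+DM, 46.8 ± 0.954 CPM in BMP2 and 10.1 ± 0.920 CPM in PBS, so BMP2 was highest, as it was for Inhbb. Fstl3, another gene of this list, did not share that order. It had 15.9 ± 3.74 CPM in BMP2+DM, 25.7 ± 3.19 CPM in BMP2 and 42.0 ± 2.26 CPM in PBS, so PBS was highest.

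The 11 genes taken as BMP-SMAD targets rose in 5 cases and fell in 0 in BMP2 against PBS (median 0.17), 8 fell and 1 rose in BMP2+DM against BMP2 (median −1.06), and 7 fell and 1 rose in BMP2+DM against PBS (median −0.89). Smad6, an inhibitory SMAD, was at −1.93 ± 0.10 in BMP2+DM against BMP2. These lists were described by their counts and medians, and no test of a list as a whole was made.

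**Figure D5:**
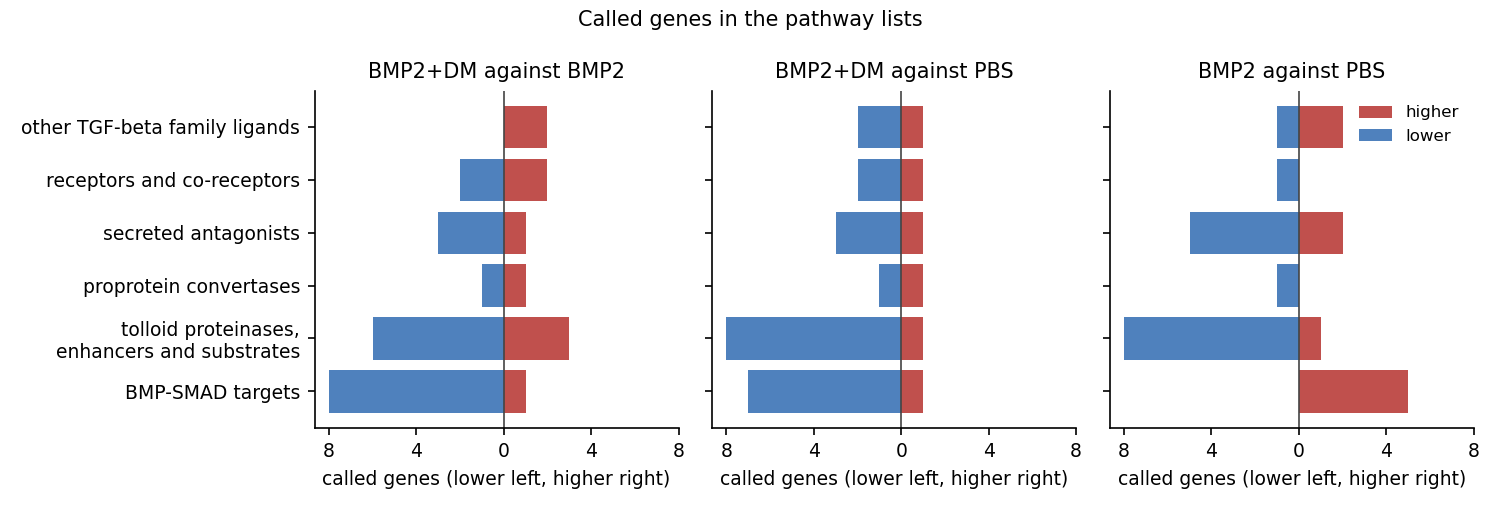
Number of genes called lower (left of 0) and higher (right of 0) in 6 lists of the ligands' pathway, in the 3 comparisons, at an edgeR adjusted p under 0.05. In BMP2+DM against BMP2, 8 of 11 BMP-SMAD targets were lower, and in BMP2 against PBS 8 of 12 tolloid-related genes were lower.

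For each of the 7 genes called in a comparison, likeness to other genes was measured as the root-mean-square difference of mean-centred log2 CPM over the 6 libraries, among 10910 tested genes with a mean log2 CPM of at least 2, leaving out predicted genes and pseudogenes. Lif, which encodes the cytokine leukaemia inhibitory factor, was nearest to Inhbb, with a difference of 0.089 and levels of 22.1 CPM in BMP2+DM, 44.9 CPM in BMP2 and 19.97 CPM in PBS. Unc13c was the next, at 0.12. Tlr2, a Toll-like receptor gene, was nearest to Bmp4, with a difference of 0.045 and 13.0 CPM in BMP2+DM, 7.54 CPM in BMP2 and 14.3 CPM in PBS, before the glutamate transporter gene Slc1a3 at 0.098. The nearest genes to Bmp6 were Lgr6, an R-spondin receptor gene (0.084), and Etl4 (0.10), and to Gdf6 the kinase gene Src (0.045) and the netrin gene Ntn1 (0.047). Ier5l (0.040) and Csgalnact2 (0.042) were nearest to Inhba, and the calmodulin gene Calm2 (0.014) and Arpc2 (0.018) to Bmp1. For Bmp10, with group means of 0.833 to 3.93 CPM, the nearest were Mturn at 0.22 and Pdzd2 at 0.27. The cutoff on level kept genes as low as Bmp10 out of the candidates. The measure makes no allowance for counting noise, and Bmp10 had 7 to 55 counts per library, so distances of different members cannot be compared. With 6 libraries in 3 groups such likeness is a description of level patterns.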

How the data were processed

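Polyadenylated RNA was sequenced in 6 libraries, 2 per treatment, grouped by the titles in the labels. The authors deposited raw counts, whole numbers for each gene symbol, in 6 files. The submitters' processing notes name build mm10 and the tools HTSeq, STAR, Trimmomatic, FastQC and DESeq2, without versions, and neither annotation nor strand setting. The 5 summary lines per file that name no gene held 53.8% to 54.2% of each total (49.7% to 50.1% assigned to no feature) and were left out.

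Of 32245 symbols, 31424 were found in GENCODE vM21 (mm10), which gave positions and exon lengths. The edgeR filter filterByExpr (minimum count 10, minimum total 15) left 14378 genes. They were tested by quasi-likelihood (edgeR 4.0.16, R 4.3.3, TMM scaling), all 6 libraries in one fit without covariates (3 residual degrees of freedom). Adjustment was by Benjamini-Hochberg over all tested genes, with a threshold of 0.05. SE was taken as the size of the log2 fold change over the root of the F statistic, and 95% intervals use the fit's degrees of freedom. CPM uses TMM-adjusted library sizes. Replicates differed by more than sampling noise (chi-square per degree of freedom of 3.88, 17.5 and 13.6 for BMP2+DM, BMP2 and PBS) and were counted separately. These values include the 2 ribosomal-repeat models. The share of those models differed between replicates 1 and 2, at 2.10% and 0.0928% in BMP2 and 1.31% and 0.0702% in PBS. The values therefore do not compare the spread of the other genes between groups, which was not computed. Of the motifs searched, CAGAC and CACGTG were added after the stretches were seen.

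The 10 genes and all lists were chosen with earlier results of these data known. Beyond the 10 genes, a list's called genes are named up to 3 per comparison by smallest p, marker lists included, and the 2 genes most like each called gene. The sums, shares and ratios of the ligand genes were chosen after their values were seen. The alternatives were DESeq2 1.42.0, its size factors in edgeR, no filter on low counts, only the groups compared, a replicate block, each library left out, PBS 1 and BMP2 1 left out together, ribosomal-repeat models left out of library sizes and, for levels per kb, another gene length.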

Additional observations from a re-analysis of the deposited data

How the results depend on the processing

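Of 390 fold changes of the 10 genes under alternatives, 361 kept their direction and their side of the threshold, 19 lost a call, 4 gained one and 6 changed sign. The sign changes were all of values that did not pass: Bmp5 in BMP2 against PBS was 0.064 with the replicate block and −0.54 to 0.78 with 1 library left out (highest without PBS replicate 2), and −0.88 to 0.44 in BMP2+DM against PBS. Bmp4 in BMP2+DM against PBS was −0.17 to 0.033 with 1 library left out (above 0 without PBS replicate 1 or BMP2+DM replicate 1) and 0.032 without both libraries high in ribosomal-repeat reads. The cause was not tested. With those 2 libraries left out, genes called higher and lower were 171 and 403 in BMP2 against PBS (942 and 1335 in all libraries), 137 and 176 in BMP2+DM against BMP2 (616 and 639), and 533 and 855 in BMP2+DM against PBS (1349 and 1658), with fewer samples in the fit. Of the 10 genes described, Bmp1 included, 0 were then lower in the first comparison, 0 higher in the second and 2 lower in the third. With no filter on low counts 2 were lower in the second.

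Leaving out each library in turn gave 475 to 1028 higher and 843 to 1442 lower genes in BMP2 against PBS, 314 to 528 and 356 to 553 in BMP2+DM against BMP2, and 742 to 1298 and 1085 to 1630 in BMP2+DM against PBS. Of the same 10 genes, 3 to 5 were lower in the first comparison, 1 to 2 higher and 1 to 2 lower in the second, and 2 to 4 lower in the third. Where an arm held 1 library, it was assumed to vary like the other groups.

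The labels number the replicates 1 and 2 in each group without saying that a number marks a shared source. Deviations of same-numbered libraries correlated at 0.079, −0.0027 and −0.029 across genes in the 3 comparisons, so the numbers were not taken as pairs. With the replicate block, 932 and 1329 genes were called higher and lower in BMP2 against PBS, 601 and 625 in BMP2+DM against BMP2, and 1327 and 1633 in BMP2+DM against PBS, and no call of the 10 genes changed. Levels per kb moved by more than 1 SD with the longest transcript as length in 10 of 30 values, and in 0 of 30 with DESeq2 size factors. Depth limits Bmp2, Bmp5 and Bmp10 most, with 7 to 55 counts per library.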
